A study of Homo sapiens with 2 samples.

Results

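The regions described here are exon-intron boundaries that carry evidence from a transcript. Each is a stretch of 62 bases, 31 from the end of an annotated exon and 31 from the intron beside it, on which reads were counted that run from one into the other. An EI boundary lies where an exon ends and an intron begins, the donor or 5′ splice site if RNA is spliced there. An IE boundary lies where an intron ends and the next exon begins, likewise the acceptor or 3′ splice site. An Ensembl transcript splices at 65.1% of the EI and 74.7% of the IE boundaries described here, and the others can be transcript starts or ends. Members had to be supported by at least 1 Ensembl transcript, mRNA or EST (a short read of a cloned cDNA), to hold at least 20 reads over both libraries, and to lie in a gene with at least 200 gene reads over both. Of 429011 boundaries in the files, 75023 had such support and 19457 met every minimum, which is 4.54% of all boundaries. They comprise 9565 EI and 9892 IE boundaries in 6163 genes. A further 55393 supported boundaries had fewer than 20 reads, 23459 of them none, and 173 lay in genes with too few reads. The read minimum sits in a continuous distribution. In genes with enough reads, 548 supported boundaries had exactly 20 reads, with a median log2 difference of 0.24 between the lines as defined below, and 581 had 19 reads, with a median of 0.14.

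The reads come from polyadenylated RNA of MIP101, a human colorectal cancer line from a liver metastasis that is sensitive to 5-fluorouracil (5-FU), and of MIP/5FU, a single resistant clone selected from it by passage in rising 5-FU. The resistant clone was kept in 5 µM 5-FU and has a 10-fold higher IC50. Both cultures were grown for about 48 hours without drug or antibiotics before RNA was taken, so neither library was made under acute treatment. There is 1 library of each line, so no difference below has a replicate check, no test was run, and a difference between the lines cannot be told apart from one between 2 cultures or preparations. Intervals cover counting error only, and reads copied by PCR are not independent molecules. The MIP101 library held 200141071 gene reads and 3438984 boundary reads, the MIP/5FU library 109693681 and 1948334. In bulk RNA, fewer cells that make a transcript and less of it per cell cannot be told apart. Of 8 epithelial and colorectal markers all were detected, with KRT8 at 3309 and 3844 RPM (reads per 1000000 gene reads) in MIP101 and MIP/5FU, and LGALS4 lowest at 1.79 and 0.72. The 5 blood markers summed to 1.59 and 2.43 RPM and the 4 hepatocyte markers to 0.74 and 1.13. The 7 fibroblast and endothelial markers summed to 21.1 and 17.0. Of these PDGFRB had 12.3 and 16.3 and COL3A1 8.29 and 0.35, with COL1A2 and CDH5 at 0 in both.

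The spliceosome removes an intron by cutting at the donor, usually a GT at the start of the intron, and at the acceptor, usually an AG at its end. A read that runs across a boundary therefore comes from an RNA in which that cut had not been made: from a transcript that has yet to be spliced, from a polyadenylated transcript that keeps the intron, or from a transcript whose exon simply extends further, through another splice site, promoter or poly(A) site. Retained introns are known in genes for RNA-binding proteins and splicing factors, where they can set how much mature mRNA is made. Introns that are retained in mature transcripts tend to be short.

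The bases of several boundaries on which the results turn are shown first, because they let a reader see what the 62 bases hold and where the cut would fall. They were read from GENCODE 29 transcripts on GRCh38 whose exon runs through the whole stretch, after an intron of the same Ensembl gene with the same, unique length had been found there. Lower case is exon and capitals are intron, 5′ to 3′ on the gene's strand. Names give the exon cluster, then D for a donor or A for an acceptor with a letter for the particular site. The first 4 are the ends of introns that were relatively higher in MIP/5FU at a donor or at both ends.
HSPE1 E3_Da: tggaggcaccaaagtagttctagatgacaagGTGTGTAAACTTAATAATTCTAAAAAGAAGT
HSPE1 E3_Ab: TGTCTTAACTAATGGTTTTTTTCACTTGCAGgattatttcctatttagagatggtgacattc
UBE2M E4_Da: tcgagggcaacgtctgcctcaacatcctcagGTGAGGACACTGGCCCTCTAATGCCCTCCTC
TRPM7 E32_Da: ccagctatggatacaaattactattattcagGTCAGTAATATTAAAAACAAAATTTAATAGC
On GRCh38 these lie at chr2:197503098-197503159 and chr2:197503178-197503239 on the plus strand, chr19:58556656-58556717 on the minus strand, and chr15:50575838-50575899 on the minus strand. Each has its exon bases in coding sequence. The HSPE1 donor and acceptor belong to 1 intron of 80 bases, and the TRPM7 donor to one of 79 bases.

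The next set comes from genes in which several boundaries moved. HNRNPH1 encodes a nuclear RNA-binding protein that acts in splicing, EIF4A2 an RNA helicase of the translation initiation complex, and NME3 a nucleoside diphosphate kinase.
EIF4A2 E8_Aa: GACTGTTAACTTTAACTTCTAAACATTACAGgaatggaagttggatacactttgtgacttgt
EIF4A2 E9_Da: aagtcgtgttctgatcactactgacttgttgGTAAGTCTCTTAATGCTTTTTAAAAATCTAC
HNRNPH1 E10_Aa: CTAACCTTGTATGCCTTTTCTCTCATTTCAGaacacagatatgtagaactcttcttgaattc
HNRNPH1 E11_Aa: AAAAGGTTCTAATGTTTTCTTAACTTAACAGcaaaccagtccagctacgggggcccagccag
NME3 E1_Da: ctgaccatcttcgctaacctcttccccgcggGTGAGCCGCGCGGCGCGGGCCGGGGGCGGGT
NME3 E2_Da: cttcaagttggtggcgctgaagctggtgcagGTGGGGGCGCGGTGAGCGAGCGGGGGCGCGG
The 2 EIF4A2 stretches are at chr3:186787096-186787157 and chr3:186787554-186787615 on the plus strand, and the 2 HNRNPH1 stretches at chr5:179616928-179616989 and chr5:179616188-179616249 on the minus strand. The NME3 donors are at chr16:1771458-1771519 and chr16:1771249-1771310 on the minus strand. Every donor shown has GT as its first intron bases and every acceptor AG as its last.

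The same was true of nearly all members whose bases could be read. Of 4168 EI members with mRNA or EST support only whose exon end is a splice site in Ensembl, 89.6% had their intron matched by length, and 80.3% of those were covered by an exon of a GENCODE 29 transcript. In that covered group of 2998 the intron began with GT in 98.3% and with GC in 1.30%, and the longer donor motif GTNAGT, read only at the intron's first bases on the gene's strand, stood there in 23.7%. Over all 4812 EI boundaries that met the read minima and were covered, GT began 96.4% and GTNAGT 21.8%. Among 3606 covered IE members with mRNA or EST support only, AG ended the intron in 99.6%, against 98.9% of all 5744 covered IE boundaries. Donors supported by Ensembl transcripts had GT less often, in 90.4% of 1116, with GC in 5.65%.

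Coverage by later annotation sets supported and unsupported boundaries apart. Where an intron was matched, 80.3% of EI and 76.3% of IE members with mRNA or EST support only lay inside a GENCODE 29 exon, against 18.0% and 15.4% of boundaries that met the read minima with no transcript support in the files. Of the covered members with mRNA or EST support only, 73.7% and 75.2% were in a transcript that GENCODE types as a retained intron. The covered boundaries without support were alike in this, at 72.1% and 75.9%. In the Ensembl-supported group 98.4% and 98.1% were covered, and 31.9% and 33.4% of these by a retained-intron transcript. GENCODE draws on many of the same mRNAs and ESTs as the support columns, so this is not independent evidence of transcription in these cells.

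Support by Ensembl and support by mRNA or EST alone marked different kinds of boundary. Of the members 9216 had Ensembl support and 10241 had mRNA or EST support only. Among the Ensembl-supported, the exon end was itself an Ensembl splice site in 41.2% of EI and 51.6% of IE boundaries. The others are ends of an exon at which no Ensembl transcript splices, such as a transcript start or end. Among those with mRNA or EST support only it was an Ensembl splice site in 91.3% of EI and 91.9% of IE boundaries. All 62 bases were coding in 36.0% of Ensembl-supported EI and 40.0% of IE boundaries, but in 0.37% and 0.18% of those with mRNA or EST support only. Support was usually thin in the latter group: 1581 of its 4168 EI and 2353 of its 5217 IE boundaries at splice sites rested on 1 mRNA or EST.

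How much of the RNA ran on was measured as the boundary share, the reads across a boundary as a percentage of those reads plus the reads of all junctions that use the same exon end. It was taken only where that exon end is an Ensembl splice site. Among EI members the median share was 26.5% in MIP101 and 29.8% in MIP/5FU (n = 6230 boundaries), and among IE members 25.5% and 28.6% (n = 7387). These medians move with the read minimum: with at least 50 reads they were 64.1% and 65.4% at EI and 58.0% and 58.5% at IE. Pooled over all reads the members' share was 15.3% and 15.9% at EI and 15.2% and 15.5% at IE. At the 20-read minimum EI and IE members, both support classes together, thus had similar shares in each library. At 50 reads the EI medians were the higher. Within the support classes below, the pooled share was higher at EI with Ensembl support and higher at IE with mRNA or EST support only. The 2 support classes lay far apart. With Ensembl support the median share was 90.5% and 90.9% at EI and 88.7% and 90% at IE. Pooled over all reads of that class the share was 56.5% and 55.8% at EI and 44.3% and 43.8% at IE, a measure in which ends with many junction reads weigh more. With mRNA or EST support only the median was 14.7% and 16.9% at EI and 16.8% and 18.5% at IE, and pooled 6.4% and 7.11%, and 8.05% and 8.41%. Boundaries without support that met the same read minima were like the second class, with 15.5% and 16.0% at EI and 16.4% and 16.5% at IE. Since every one of these boundaries had to hold 20 reads, the shares describe boundaries that are read and not exon ends at large.

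**Figure D1:**
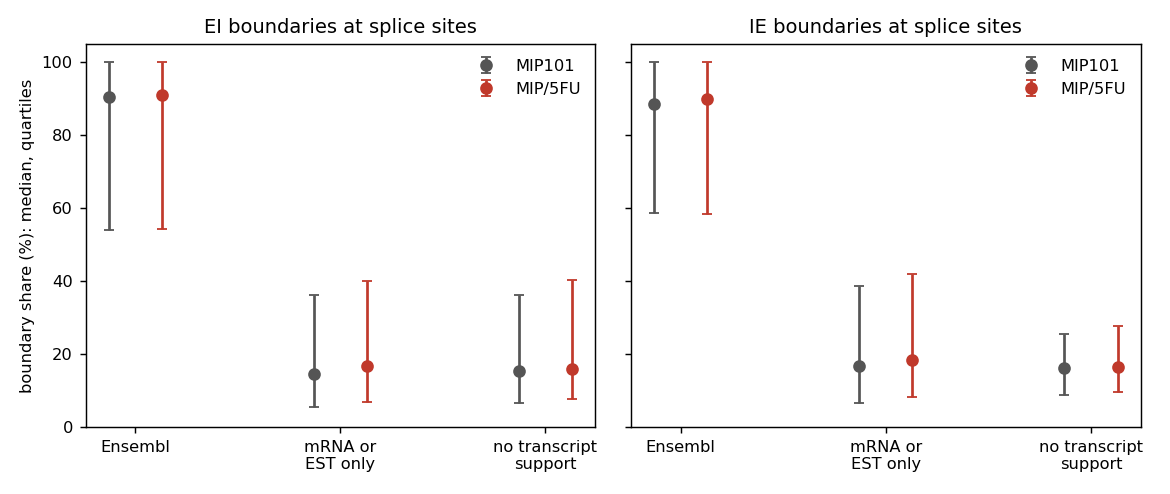
Boundary share (%, vertical axis) at EI and IE boundaries whose exon end is an Ensembl splice site, by kind of transcript support, in MIP101 (grey) and MIP/5FU (red). Points are medians over boundaries and bars run from the lower to the upper quartile; Ensembl-supported boundaries sit near 90% in both lines, and the other groups between 14.7% and 18.5%.

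Some members belong to annotated gaps too short to be introns. Of 13621 members at splice sites, 657 in 278 genes belonged to an annotated intron under 30 bases, 281 of them Ensembl-supported EI and 293 Ensembl-supported IE boundaries. OAZ1, the antizyme that degrades ornithine decarboxylase and is translated through a programmed frameshift, has one of 4 bases with mRNA and EST support only, whose donor E2_Da had 659 and 422 reads in MIP101 and MIP/5FU and no junction read. Without such gaps the Ensembl-supported median shares were 84.6% in both lines at EI, and 84.6% and 85.7% at IE.

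Among members with mRNA or EST support only, the share varied with the intron's place and length and with the amount of support. First introns ran on most, with a median EI share of 35.2% in MIP101 and 35.7% in MIP/5FU, against 13.6% and 15.9% for introns that are neither first nor last. At the IE end the same contrast was 33.2% and 35.1% against 15.4% and 17.0%. By length, introns of 5000 bases or more stood above the rest at the EI end, at 25.4% and 28.1%. Those under 100 bases, annotation gaps included, had 16.3% and 18.8%. Without gaps under 30 bases, EI and IE together, introns of 30 to 99 bases had 14.6% and 17.9%, the lowest group in MIP101. Those of 5000 bases or more then had 23.7% and 25.6%. The lengths between had 15.2% to 15.7% in MIP101 and 16.3% to 17.6% in MIP/5FU. Boundaries backed by 5 or more mRNAs and ESTs had a higher share than those backed by 1, 18.7% against 13% at EI and 26.8% against 14.9% at IE in MIP101. These are differences between boundaries within a library. Library size cancels in each share, but depth and the read minimum decide which boundaries enter. At introns of 5000 bases or more, EI and IE together without gaps, the MIP101 median was 23.7% with at least 20 reads. It was 45.6% with at least 50 and 74.4% with at least 100.

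The lines were compared with the boundary index, the log2 ratio of boundary reads in MIP/5FU over MIP101 minus the log2 ratio of the gene's own reads, with 0.5 reads added to each. A value of 0 means that a boundary moved with its gene, and library size cancels. A boundary was counted as relatively higher or lower at an absolute index of at least 1, which is 2-fold, with a counting interval, built to miss in at most 0.1% of cases, that excludes 0. Intervals of indices below are of that kind. Most members moved with their genes, and 75.6% stayed within 1.5-fold. The median index was 0.07 at EI and 0.10 at IE, against 0.08 over all EI and 0.08 over all IE boundaries that met the minima. The EI median changed sign, to -0.04, when centred on boundaries without support, and the IE median then fell to 0.03.

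Of the EI members 44 were counted as relatively higher in MIP/5FU and 5 as lower, and of the IE members 44 and 4. Over all boundaries that met the read minima, supported or not, 0.465% of EI were counted higher and 0.0625% lower, and 0.379% of IE higher and 0.0688% lower, and both types together 0.418% and 0.066%. The members' own shares of 0.46% and 0.44% higher are near that background. The 97 counted members fall in 87 genes, and 74 of them have mRNA or EST support only. Depth limits which direction can be counted, because MIP/5FU has fewer reads. Its part in the tilt towards higher counts was not tested. In a gene that follows the library totals, 20 boundary reads can be counted higher with up to 4 of them in MIP101 but cannot be counted lower at all, and lower counts begin at 21 reads. With at least 100 and under 300 reads, where both directions can be counted, 24 members were higher and 4 lower, and with 300 or more 4 and 3.

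By support, 38 EI and 29 IE boundaries with mRNA or EST support only were counted higher, of 4566 and 5675, and 5 and 2 lower. With Ensembl support 6 EI and 15 IE boundaries were higher, of 4999 and 4217, and 0 and 2 lower. Their median index also differed, at 0.19 for EI and 0.18 for IE with mRNA or EST support only, 0.01 and 0.03 with Ensembl support, and 0.11 and 0.06 without support. Above 0 were 63.1% of the EI boundaries with mRNA or EST support only. The median moved with the number of reads in each class: among EI boundaries with mRNA or EST support only it was 0.25 at 20 to 49 reads, 0.16 at 50 to 99, 0.08 from 100 to under 300 and -0.02 at 300 or more. Unsupported EI boundaries went from 0.16 to -0.04 over the same steps. The part of read number in the difference between classes was not tested.

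**Figure D2:**
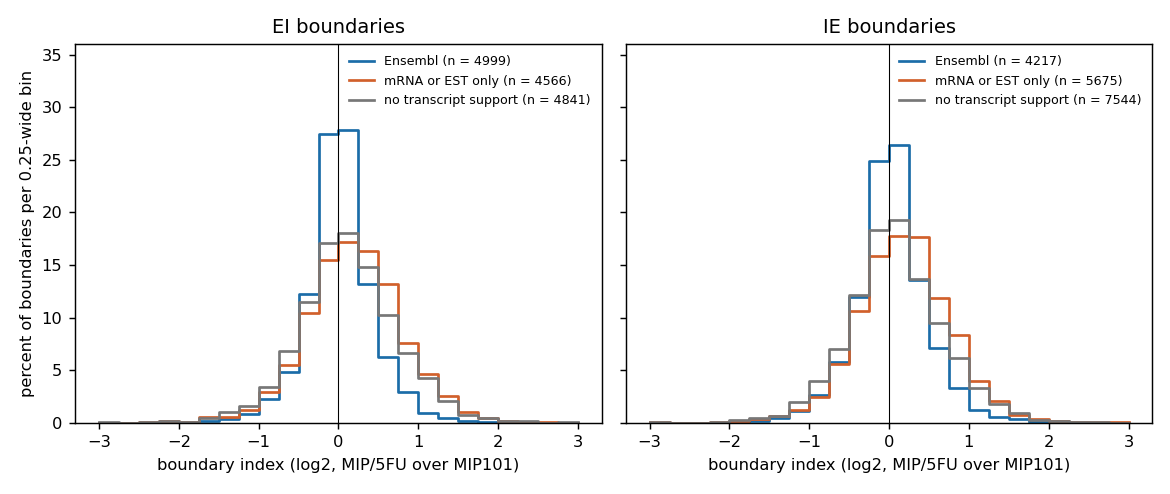
Boundary index (log2, MIP/5FU over MIP101 relative to the gene) of EI (left) and IE (right) boundaries, as the percentage of boundaries in each 0.25-wide bin, by kind of transcript support; values beyond 3 are drawn in the last bins. Ensembl-supported boundaries (blue) are the narrowest around 0, and those with mRNA or EST support only (orange) lie to the right, with medians of 0.19 and 0.18.

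**Figure D3:**
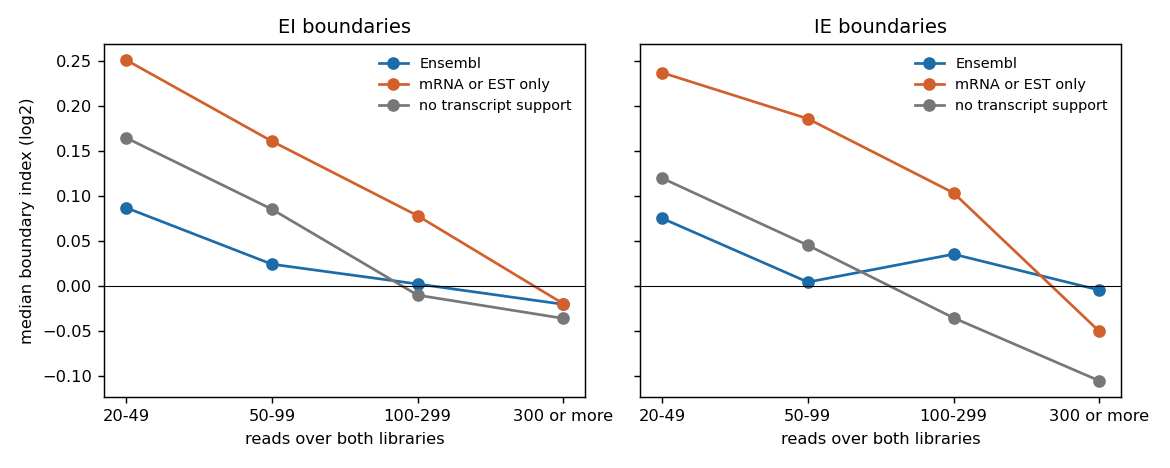
Median boundary index (log2, vertical axis) by reads over both libraries (horizontal axis) for EI and IE boundaries of each support class. In each class the median is lower at 300 or more reads than at 20 to 49, and the class with mRNA or EST support only is highest in every step under 300 reads.

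Short introns had the higher median index. Among members with mRNA or EST support only at introns of 30 to 99 bases the median index was 0.31 (n = 1061), against 0.13 at 5000 bases or more (n = 560), with 0.20, 0.20 and 0.15 for the lengths between. With at least 100 reads the shortest group still stood at 0.20 (n = 159) and the longest at 0.00 (n = 82). The counts did not follow the medians: 12 of the 1061 were counted higher and none lower, and 10 of the 560 at the longest introns higher and 2 lower. First introns lay close to 0, at 0.06 for EI and 0.11 for IE, and last introns at 0.23 and 0.20.

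An intron kept whole in an RNA gives reads at both of its ends. Both ends were members in 3575 introns of 2154 genes, and 2276 of these had mRNA or EST support only at both. In the latter group both indices were above 0 in 48.6% of introns and both below in 14.6%, and the Pearson correlation of the 2 indices across introns was 0.25. That value describes introns of 2 libraries, which share their gene reads as reference. Read totals at the ends were within 2-fold of each other in 84.3% of those introns. In the 1092 introns with Ensembl support at both ends, 25.0% were above 0 at both and 28.2% below.

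**Figure D4:**
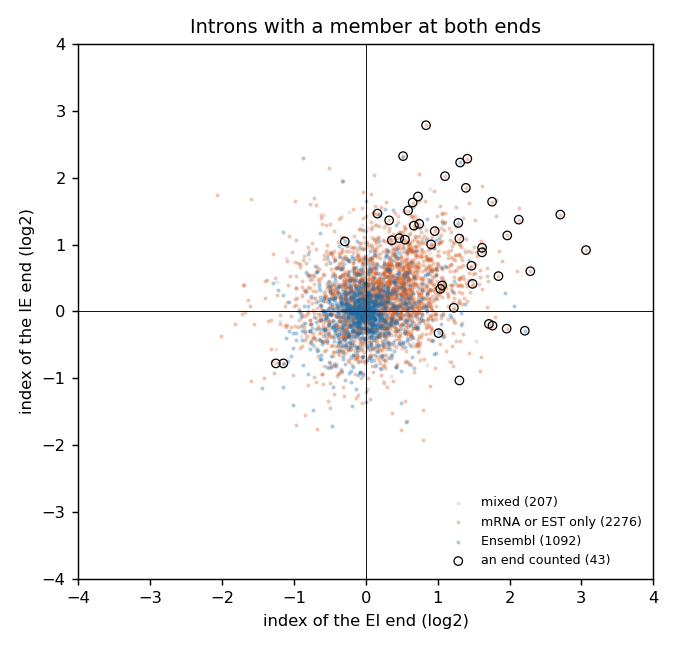
Index of the IE end (vertical, log2) against that of the EI end (horizontal, log2) for 3575 introns with a member at both, coloured by support; open circles mark introns with an end counted. Points with mRNA or EST support only fill the upper right quadrant more than the lower left, 48.6% against 14.6%.

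A change was counted at both ends in the same direction in 2 introns, UBE2M and HSPE1. UBE2M is the E2 enzyme that transfers the ubiquitin-like protein NEDD8. Its E4_Da donor (hg18 chr19:63759835-63759896) was read 19 times in MIP101 and 35 times in MIP/5FU, and the E5_Aa acceptor (chr19:63759528-63759589) across the 307-base intron had 26 and 44. Both rose although UBE2M itself was level, at 111 and 109 RPM. The indices were 1.76 (interval 0.27 to 3.42) and 1.64 (0.34 to 3.06). The share at the donor was 1.99% (95% Clopper-Pearson interval 1.20 to 3.09) in MIP101 and 6.64% (4.67 to 9.12) in MIP/5FU. At the acceptor it was 2.68% (1.76 to 3.90) and 9.67% (7.11 to 12.8). The intervals of the lines do not overlap at either end, but the shares use the boundary reads by which this intron was chosen. The next intron downstream also lay above 0, with 15 and 20 reads at E5_Da and 23 and 25 at E6_Aa, indices of 1.30 and 1.01, neither of them counted.

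HSPE1 encodes the mitochondrial co-chaperonin that caps HSPD1. The donor and acceptor printed above had 35 and 13 reads in MIP101 and 56 and 40 in MIP/5FU, with indices of 1.31 (0.19 to 2.51) and 2.23 (0.67 to 4.18). Both are supported by an Ensembl transcript, and the shares rose from 4.02% (2.82 to 5.55) to 9.44% (7.21 to 12.1) at the donor and from 1.53% (0.81 to 2.60) to 6.85% (4.94 to 9.21) at the acceptor. HSPE1 has near-identical copies in the genome, so reads of this gene are uncertain. Its other 5 members had indices from -0.48 to 0.41, so the rise was read at this intron and not along the gene.

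In 40 further introns only 1 of the ends was counted, and in 1 the ends went opposite ways. Of 22 introns with the donor counted higher and a member acceptor, that acceptor was above 0 in 16, with a median of 0.56. Of 21 with the acceptor counted higher, the donor was above 0 in 20, with a median of 0.73. Above 0 were 58.0% of all members, and 63.6% of those at splice sites with mRNA or EST support only. Both ends of an intron share their gene reads as reference, and the difference from these percentages was not tested. The opposite case is BAT1 (now DDX39B), an RNA helicase of the spliceosome and of mRNA export. Its E3_Da donor went from 38 to 40 reads (index 1.30) and its E5_Ac acceptor from 165 to 34 (index -1.03). They are the ends of an intron of 1415 bases that spans exon cluster 4.

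In EIF4A2 neighbouring introns went opposite ways. Its 19 members all had mRNA or EST support only and ran from E2_Aa to E11_Aa. From E2_Aa to E9_Aa the 15 indices ran from 0.16 to 1.31, the highest at the acceptor E8_Aa, which went from 86 reads to 136 and was counted (1.31, 0.59 to 2.06). The share there rose from 4.88% (3.92 to 5.99) to 12.8% (10.9 to 15.0). At the next intron but one, of 218 bases, the donor E9_Da fell from 443 to 118 reads and the acceptor E10_Aa from 432 to 160. Those indices were -1.25 (-1.83 to -0.72), which was counted, and -0.78, whose interval of -1.29 to -0.29 excludes 0 but which misses the 2-fold size. The shares fell from 24.6% to 9.79% and from 25.7% to 12.3%. EIF4A2 itself stood at 465 RPM in MIP101 and 539 RPM in MIP/5FU.

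HNRNPH1 had 26 members, 24 of them above 0, with a median index of 0.77. From E2_Aa to E5_Aa, across 4 introns, the indices were 0.37 to 0.82. Both counted boundaries are acceptors further along: E10_Aa had 138 and 139 reads in the 2 libraries (1.07, 0.43 to 1.71) and E11_Aa 159 and 175 (1.20, 0.62 to 1.79). Gene reads went from 125931 to 60276, so these boundaries kept their reads in the shallower library while the gene did not. The shares went from 8.54% (7.23 to 10.0) to 18.1% (15.4 to 21.0) and from 8.93% (7.64 to 10.3) to 19% (16.5 to 21.7). The donors of the same introns were less far from 0, E9_Da at 0.54 with 450 and 314 reads and E10_Da at 0.96 with 143 and 133. HNRNPH1 has close relatives and copies in the genome, so part of its reads may belong elsewhere.

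In NME3 donors were counted higher and the acceptors of the same introns were not. E1_Da went from 38 to 100 reads and E2_Da from 37 to 82, with indices of 1.96 (0.92 to 3.12) and 1.71 (0.63 to 2.91). The acceptors of the same introns of 78 and 108 bases, E2_Aa and E3_Aa, went from 20 to 11 and from 92 to 54, with indices of -0.26 and -0.19. The donor shares rose from 35.8% (26.8 to 45.7) to 63.3% (55.3 to 70.8) and from 27.0% (19.8 to 35.3) to 51.6% (43.5 to 59.6), and the acceptor shares were 22.7% and 15.9%, and 47.9% and 41.2%. HSPD1 had the same shape, E4_Da rising from 18 to 39 reads and E5_Aa at 17 and 9, in a gene with many copies.

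**Figure D5:**
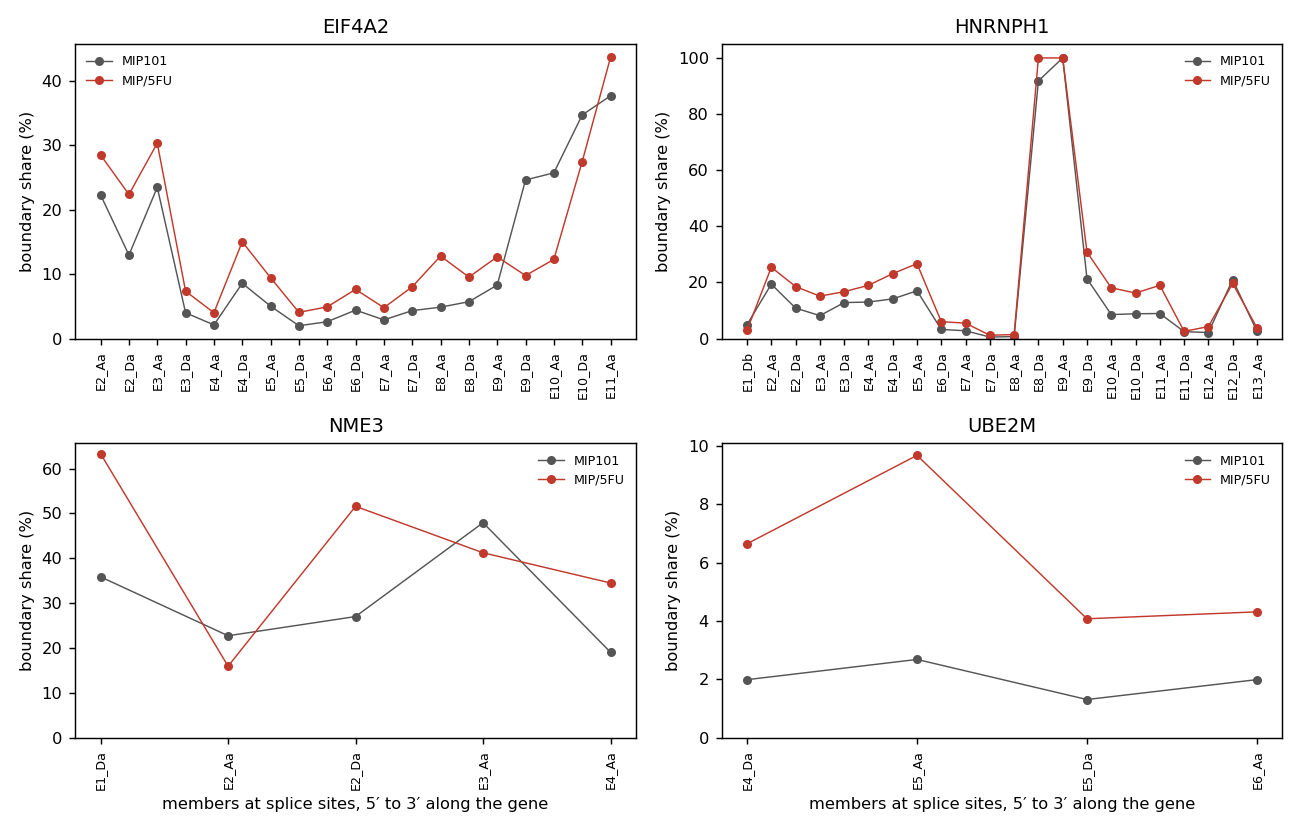
Boundary share (%, vertical axis) in MIP101 (grey) and MIP/5FU (red) at each member of EIF4A2, HNRNPH1, NME3 and UBE2M that lies at an Ensembl splice site, in order along the gene; lines only join the points. In EIF4A2 the red points lie above the grey ones up to E9_Aa and below them at E9_Da, E10_Aa and E10_Da, in NME3 they are higher at both donors and lower at E2_Aa and E3_Aa, and in UBE2M all red points are higher; the 2 HNRNPH1 points near 100% are the ends of an intron with 0 to 4 junction reads.

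OAZ1, RCC1 and ATPIF1 had 2 counted members each. In OAZ1 the acceptors E5_Aa and E6_Aa went from 23 to 45 and from 6 to 27 reads, indices of 1.66 and 2.78, at shares that stayed under 2.5%. RCC1, the exchange factor for RAN, had its donors E1_Da and E3_Da counted, 114 to 152 reads and 53 to 115. At E1_Da the junctions that use the same donor rose more, from 2031 to 5316 reads, so the share fell from 5.31% to 2.78% although the index was 1.06: relative to those junctions the index was -0.97. ATPIF1, the inhibitor of the mitochondrial ATP synthase, had E2_Da at 139 and 177 reads and E3_Aa at 75 and 98, indices of 1.04 and 1.07.

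In genes with 500 reads or more per library, the highest indices came from few boundary reads. TRPM7, a cation channel fused to a kinase, had 4 and 24 reads at the E32_Da donor printed above, an index of 3.06 (0.73 to 7.14), and its share rose from 3.42% (0.94 to 8.52) to 28.2% (19 to 39). The acceptor across that 79-base intron had 17 and 21 reads (0.92). HSP90AA1 E9_Da had 5 and 15 reads, FASN E38_Da 8 and 16, and SLC38A1 E16_Db 6 and 19, with indices of 2.71, 2.55 and 2.37. SLC7A7 E12_Da, with 26 and 10 reads in a gene that fell from 6712 to 515, reached 2.37 without being counted. Among IE boundaries DAPK3 E6_Aa, in a kinase of the death-associated family, had 4 and 20 reads (3.07, 0.61 to 7.20). Its share rose from 2.47% (0.68 to 6.20) to 20.8% (13.2 to 30.3). OAZ1 E6_Aa, XPNPEP1 E15_Aa (6 and 15 reads, 2.69) and CCNL1 E11_Aa (5 and 16, 2.62) followed. DNAJB1 E2_Aa, at 5 and 15 reads and 2.35, was not counted.

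At the other end no boundary among the 5 lowest of either type was counted, since each had 0 to 3 reads in MIP/5FU. TRPM7 appears here too: its E21_Da donor fell from 19 reads to 2, with -2.34 (-9.25 to 0.52), so a donor at each extreme of the range came from 1 gene. BCAR3 E9_Da had 24 and 2 reads (-2.63), PACS2 E16_Da 19 and 1 (-2.48), and RALY E5_Da 19 and 2 (-2.40). PHLDB2 E24_Da had 32 and 0 in a gene that fell from 11459 to 794, so no fold can be given. Among IE boundaries IDE E16_Aa had 19 and 1 reads (-2.97), KIAA0586 E2_Aa 22 and 1 (-2.40), USE1 E2_Aa 20 and 1 (-2.22) and SCOC E3_Ab 26 and 3 (-2.13).

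All 9 members counted lower are given here. ATP8B1 E18_Da went from 30 to 5 reads (-2.15, -5.64 to -0.03), and its share from 12.4% (8.56 to 17.3) to 2.99% (0.98 to 6.85). RPS15A E1_Db went from 89 to 16 (-1.41) and RPL24 E1_Da from 270 to 56 (-1.15), both in ribosomal protein genes with processed copies. FAM131A E3_Aa (133 and 69), AP000580.6 E2_Aa (328 and 160), EIF4A2 E9_Da and BAT1 E5_Ac also fell in their own RPM. FAM131A E3_Aa and AP000580.6 E2_Aa lie inside another gene's span, and AP000580.6 has only 119 and 142 gene reads, fewer than the boundary in each library, so their indices are uncertain. LRRC61 E1_Ab and HIST1H2BK E1_Db did not fall in their own RPM. They stood at 0.215 and 0.219 RPM, and 0.435 and 0.447 RPM, while their genes rose from 5.94 to 18.5 and from 129 to 273. Of the 88 counted higher, 87 had a higher RPM of their own in MIP/5FU, the exception being DCBLD1 E17_Aa at 0.989 and 0.921. In 52 of the 88 the gene's RPM was lower in MIP/5FU, a share that was not taken over all boundaries. Both counts only describe boundaries that the counting rule chose from the same reads.

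Of the 15 IE boundaries with Ensembl support that were counted higher, 9 were at exon ends with no Ensembl junction. Such ends made up 2043 of the 4217 IE boundaries with Ensembl support. Of the 2043, 0.44% were counted higher, near the 0.379% of all IE boundaries. RCN2 E1_Ac, in the gene for a calcium-binding protein of the endoplasmic reticulum, went from 35 to 110 reads (2.24, 1.25 to 3.38). LLGL2 E1_Ac went from 44 to 102 (1.72), PDCD2 E1_Ab from 90 to 91 (1.09), ICMT E1_Ab from 14 to 30 (1.81) and LAMA5 E1_Ab from 22 to 34 (1.45). All 5 are acceptor-type boundaries in a first exon cluster. In LLGL2 all 62 bases are coding and in RCN2 none, so they do not mark the same kind of place.

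The gene lists looked at were chosen with results of these data known. HNRNP and RBM genes held 230 members, of which 7 were counted higher and none lower, a share of 3.04% beside 0.418% of all boundaries. Besides the HNRNPH1 acceptors they include HNRNPD E3_Aa (25 and 25 reads, 1.71), HNRNPH3 E8_Da (13 and 23, 1.85) and PTBP1 E10_Aa, in the polypyrimidine tract binding protein (32 and 43, 1.36). Their median index was 0.28, against 0.08 for all boundaries. HNRNPD E3_Da (14 and 16, 1.89) and RBM5 E25_Aa (13 and 20, 1.88) had indices as high and were not counted. SR protein genes and their kinases held 126 members with a median of 0.03, and core spliceosome genes 113 with a median of 0.12. None was counted in either list, and both are too short for a count of 0 to be read against 0.418%. In U2AF1 the donor E2_Da had 11 and 17 reads (1.38) and E2_Aa, the acceptor of the intron before it, 8 and 12 (1.33). The difference between these lists was not tested.

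A list of 31 ribosomal protein and translation factor genes, which leaves out others such as RPL24, RPL27 and RPS21 that had a counted member, held 239 members with a median of 0.32, 2 counted higher (EIF4A2 E8_Aa and RPL10A E3_Aa, 57 and 56 reads, 1.06) and 2 lower (EIF4A2 E9_Da and RPS15A E1_Db). Those were 0.84% each way, beside 0.418% higher and 0.066% lower over all boundaries. Counts of 2 are too few to set the list apart. The boundary share could be very small: at RPL18 E1_Da 21 and 32 reads stood beside 16769 and 9781 junction reads. Genes reported elsewhere with retained introns held 171 members with a median of 0.14, 3 counted higher and 1 lower. These were 1.75% and 0.58%, beside the same 0.418% and 0.066%, again from few counts. TIA1, an RNA-binding protein of stress granules, had 7 and 21 reads at E5_Aa (2.31), a share of 6.36% (2.60 to 12.7) and 30.0% (19.6 to 42.1), and CCNL1 and BAT1 gave the others. Nonsense-mediated decay and exon junction genes held 47 members with a median of -0.04, none counted, which so few members cannot set apart from 0.418%, and the largest values were UPF2 E3_Db (19 and 4 reads, -1.16) and E3_Ae (23 and 5, -1.14).

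Fluoropyrimidine and nucleotide metabolism genes, among them the enzymes on which 5-FU acts, held 72 members with a median of -0.0024. None was counted, and with 0.418% of all boundaries counted higher a list of that size is too short for a count of 0 to set it apart. TYMS, the thymidylate synthase that 5-FU metabolites block, had 64 and 61 reads at E1_Da (0.14, share 3.32% and 3.57%) and 102 and 65 at E7_Aa (-0.44, share 4.04% and 3.19%). UMPS, which activates 5-FU, had no member. UCKL1 E4_Da had 15 and 24 reads (1.24) and UPP1 E2_Ad 20 and 4 (-0.98). Genes of the p53 response and apoptosis held 37 members with a median of 0.09, none counted, again too few to read against 0.418%. BAX E2_Aa had 71 and 22 reads (-1.23), its share 83.5% and 44.0% beside 14 and 28 junction reads, and BCL2L11 E2_Da 13 and 17 (1.21).

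The boundaries with the most reads were Ensembl-supported in 8 of 10 cases, and relative to their genes they hardly differed between the lines. At the EI end GAPDH E10_Da had 19800 and 13241 reads, EEF1A1 E5_Db 18696 and 7686 and E4_Da 18041 and 7541, and FTH1 E1_Da 13794 and 10460. Their indices ran from -0.09 to 0.19. At the IE end H19 E2_Aa went from 22350 reads to 128 with an index of -0.14, and H19 as a gene, an imprinted noncoding RNA, from 8720 to 101 RPM. Its share was 83.8% and 84.8%. AC002480.1 E2_Aa, now named EEF1A1P27 after the EEF1A1 copy that it is, held 15606 and 5996 reads against 1687 and 652 gene reads, 1 of 27 members with more boundary than gene reads. KRT18 E2_Ab (13376 and 8369) and PTMA E2_Ad (10726 and 6923) lay at -0.054 and 0.20. All of those named here except H19 have copies or repeats in the genome, so where their reads came from is uncertain.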

How the data were processed

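Members, gene lists and the naming rule were chosen with earlier results of these data known. Boundary, junction and gene files hold read counts, which the authors did not normalize, and normalized coverage, a signal that the authors scaled per library, per the file headers. The build is hg18 per the submitters' processing notes, features come from Ensembl release 53 per the file names, with the aligner not given in the sources used here. Exon regions gave positions only, and transcript values were not used.

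Junctions were joined to boundaries by gene and exon end. The interval of an index, with 0.1% error in all, joins exact conditional binomial intervals of boundary and gene, and shares have Clopper-Pearson 95% intervals. Since there is 1 library per line, no test was made. Named boundaries were the 5 highest, 5 lowest and 5 most-read of each type (extremes where the gene had 500 reads or more per library), introns counted at both ends, up to 4 boundaries per gene list, and TYMS and UMPS. Genes with 2 counted members, the first-exon examples and the lower counts were chosen after their values were seen. A few boundaries that the rule names are not reported here. Sequences are from GENCODE 29 transcripts on GRCh38; no coordinate was converted. The interval was tested on simulated data. Alternatives were the authors' coverage, other references, centring, read minima, Ensembl support alone, gene overlap, other sizes and intervals, and 1 added read. Tools were scipy 1.17.1, pandas 2.3.3, matplotlib 3.10.9 and numpy 2.4.6 under Python 3.11.15.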

Additional observations from a re-analysis of the deposited data

How the results depend on the processing

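No paired analysis was possible because each line has 1 library. Depth limits lower counts most, since below 21 reads a member of a gene that follows the library totals cannot be counted lower. Replacing reads by the authors' coverage left 95 of the 97 counted members counted, and adding 1 read all 97. Junction reads of the gene as reference kept 78 of 96 and junction reads at the same exon end 32 of 74, with RCC1 E1_Da reversed at -0.97; the cause was not tested. Counts below are higher EI, lower EI, higher IE, lower IE and introns with both ends counted the same way, where they moved by over 1.5 times from 44, 5, 44, 4 and 2. With junctions at the same end they were 19 higher EI, 22 higher IE and 6 introns, and with gene junctions 1 lower IE and 4 introns. Centring on unsupported boundaries gave 27 higher EI. A minimum of 50 reads gave 26 higher IE. Outside other genes' spans there were 2 lower IE. Ensembl support alone gave 6, 0, 15, 2 and 1, an index of at least 2 gave 10, 1, 16, 0 and 0, and a 95% interval 234, 52, 257, 55 and 15. Median indices, EI then IE, were 0.090 and 0.12 with the authors' coverage, 0.13 and 0.15 with gene junctions, 0.26 and 0.22 with junctions at the same end, -0.041 and 0.035 centred, 0.025 and 0.051 at 50 reads, 0.014 and 0.027 with Ensembl support, and 0.079 and 0.11 with 1 read added. Median shares in MIP101 and MIP/5FU were, at 50 reads, 64.1% and 65.4% for EI and 58.0% and 58.5% for IE; with Ensembl support 90.5% and 90.9%, and 88.7% and 90%; with adjacent-exon junctions alone 30.4% and 33.3%, and 30.3% and 33.9%; and for IE outside other genes' spans 24.6% and 27.2%.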

Other observations

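Of 556 genes with at least 5 members at splice sites with mRNA or EST support only, and at least 500 gene reads in each library, 446 had a median index above 0. All such members were above 0 in 70 genes and below 0 in 1. Over all genes 63.6% of members of this class were above 0. The genes with the highest medians were MUS81, an endonuclease subunit of DNA repair (7 of 7 above 0, median 1.37), STX4, a syntaxin (5 members, median 1.35), IMP4 (6 of 7, 1.14), ILF2 (7 of 7, 1.14) and SAFB2 (5 of 5, 1.06). CXXC1, a CpG-binding protein, had 11 of 11 above 0 with a median of 0.97. Those with the lowest were DNASE1 (1 of 5 above 0, -0.53), SFRS18, now PNISR (2 of 7, -0.50), GUSB (1 of 5, -0.49) and RBM39, a splicing factor (2 of 5, -0.49). Members of a gene share its reads as reference, so they are not independent, and these genes were picked by their values.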
